A study of Mus musculus with 16 samples.

Results

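The clustered protocadherins examined here were the 57 protein-coding genes of the deposited count table whose symbols begin with Pcdha, Pcdhb or Pcdhg, out of 55385 genes in all. They comprised 14 genes of the alpha cluster, 22 of the beta cluster and 21 of the gamma cluster. All lie on the plus strand of chromosome 18 (GRCm38), the alpha genes between positions 36930184 and 37187661, the beta genes between 37264938 and 37524479 and the gamma genes between 37661793 and 37841873. They were chosen by symbol, not by their values.

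Clustered protocadherins are adhesion proteins of the cadherin superfamily on the surface of neurons. Each alpha and gamma gene has its own large first exon, which encodes the extracellular domains, the membrane span and the start of the cytoplasmic part, and is spliced to small constant exons common to the cluster. Each beta gene is a single large exon with no constant part. A neuron is known to choose a few variable alpha, beta and gamma promoters, each from a single allele, through DNA loops made by the protein CTCF and the cohesin ring, so that its combination of isoforms marks its own branches. The C-type genes at the downstream end of the alpha and gamma clusters (Pcdhac1, Pcdhac2, Pcdhgc3, Pcdhgc4 and Pcdhgc5) are known to be used by many neurons at once rather than by random choice.

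RNA of hippocampus from mice aged 5 months was read as polyadenylated transcripts in 16 libraries, with 4 for each of 4 genotypes. Wild-type mice (C57BL/6J) were compared with Dp16 mice, which carry an extra copy of a stretch of mouse chromosome 16, with 5xFAD mice, which carry human transgenes with familial Alzheimer mutations driven by the Thy1 promoter of neurons, and with mice carrying both, 5xFAD-Dp16. Wild-type, Dp16 and 5xFAD had 2 males and 2 females each, whereas all 4 5xFAD-Dp16 mice were male, so that comparisons of that group used the sex term estimated in the other genotypes. As all members are on chromosome 18, none lies in the duplicated stretch. The labels do not tie every library to its own mouse, so p-values cover the spread among libraries, which may in part be technical.

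Libraries held 15.8 to 25 M counts (M, mega). Markers of hippocampal excitatory neurons were present in every library, with the 5 listed genes Slc17a7, Camk2a, Neurod6, Nrgn and Neurod2 summing to between 3925 and 10887 CPM (counts per mega count after TMM scaling). In 4 libraries, wild-type 4, 5xFAD 2, 5xFAD 4 and 5xFAD-Dp16 3, that sum was 3925 to 5527 CPM, below the 7547 to 10887 CPM of the other 12. These 4 libraries also had summed thalamus markers (9 genes) of 219 to 507 CPM against 138 to 177 CPM, summed oligodendrocyte markers (7 genes) of 6469 to 9212 CPM against 4341 to 6037 CPM and summed CA3 markers (4 genes) of 434 to 666 CPM against 831 to 1273 CPM, and 3 of them (not 5xFAD 4) had summed midbrain and hypothalamus markers (12 genes) of 78.3 to 356 CPM against 7.19 to 20.5 CPM. Of the 4 CA3 markers, only 2 lay below the other 12 libraries in each of the 4. Summed dentate granule markers (4 genes) were at 75.6 to 174 CPM in the 4 libraries against 177 to 350 CPM, again with 2 markers wholly below. Summed choroid plexus markers (10 genes) ranged from 45.5 to 6653 CPM within the genotypes. The 4 libraries were set apart by marker genes in an earlier account of these data, and results are given with and without them where that matters.

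What a count can assign to a member differs between the clusters. In the reference annotation (GENCODE vM21), every one of the 14 alpha genes and of the 21 gamma genes has exon bases that another annotated gene on the same strand holds as well, chiefly the constant exons. The median is 2860 bases, or 53.6% of the exonic length, for an alpha gene and 2119 bases, or 44.6%, for a gamma gene, against 2 of 22 beta genes with any such bases. Reads in the constant exons cannot be given to 1 member, and the sources used here do not give how the authors' counting treated them. The first exons are similar but seldom identical over the length of a read: exact stretches of 150 bases shared with the first exon of another member occurred in 8 of 14 alpha, 4 of 22 beta and 4 of 21 gamma genes. The highest share of such stretches was 6.72%, in Pcdhb21, whose closest member was Pcdhb22. Stretches of 50 bases were shared more often, with a median of 14.2% of positions in alpha, 4.26% in beta and 0.601% in gamma genes and a maximum of 23.4% in Pcdha7, closest to Pcdha8.

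Further members have overlaps of their own. The first exon of Pcdha4 is almost wholly covered by a read-through gene that runs from the alpha into the gamma cluster, which left 494 bases to Pcdha4 alone. The 3 annotated read-through genes of this kind had 0 counts in all 16 libraries. Of the 2613 exon bases that Pcdhga10 alone holds on its strand, none was free of antisense annotation. Its counts were still 134 to 279 per library. Antisense annotation reduced the bases of a member's own in 4 alpha, 1 beta and 8 gamma genes in all. They fell from 3380 to 1821 in Pcdhgc3, from 2637 to 1256 in Pcdhga11 and from 3034 to 1107 in Pcdhb12. In the table the symbol Pcdha11 stands on 2 genes, here called the upstream Pcdha11 (ENSMUSG00000007440, start 37005203, where RefSeq places Pcdha10) and the downstream Pcdha11 (ENSMUSG00000102206, start 37010712).

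In wild-type hippocampus the gamma cluster was the most abundant per length and the alpha cluster the least. The median level over members was 2.53 RPKM (reads per kilobase and mega read, as deposited) in gamma, 1.45 in beta and 0.525 in alpha. The lengths behind RPKM include the constant exons, as in Pcdha1 with 5353 bases, of which 2489 are its own. If reads there were given to no member, RPKM understates alpha and gamma genes beside beta genes. Scaled instead by the exon bases that no other gene holds on the strand, the medians were 4.38, 1.51 and 1.26 per unique kilobase and mega count, so the order of the clusters was the same and the gap between alpha and beta narrow. Counts in single libraries ran from 0 to 3185.

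Pcdhgc3 and Pcdhgc5, both gamma C-type genes, stood above all other members. Pcdhgc3 was at 24.9, 24.3, 24.6 and 23.6 RPKM in wild-type libraries 1 to 4, and Pcdhgc5 at 24.7, 22.9, 25.1 and 13.1 RPKM. Their means were 24.3 ± 0.568 and 21.5 ± 5.64 RPKM (SD, n = 4), and the ranges overlapped, with Pcdhgc5 far lower in library 4 than in the other three. Per unique kilobase Pcdhgc3 was at 32.7 to 34.5 and Pcdhgc5 at 13.5 to 25.9, with no overlap. That scale takes exons from GENCODE vM21, in which Pcdhgc3 has 5499 and Pcdhgc5 7627 exonic bases. The deposited RPKM imply 4687 and 4741 bases, so the lack of overlap may depend on the annotation used. The next gamma gene was Pcdhga11 at 5.69 ± 1.44 RPKM (SD, n = 4), followed by Pcdhga12 at 4.22 ± 0.499, whose range overlapped with that of Pcdhga11. Pcdhgc4, the remaining gamma C-type gene, which is needed for survival of some neurons, was at 2.57 ± 0.411 RPKM (SD, n = 4), close to the cluster median on that scale. The lowest gamma gene was Pcdhga1 with 1.18 ± 0.242 RPKM (SD, n = 4), so that all 21 gamma genes were above 1 RPKM on average. The order below the highest 3 gamma genes depended on the length used: per unique kilobase Pcdhga4 was rank 4 of the cluster (rank 8 by RPKM), Pcdhga12 rank 9 and Pcdhga1 rank 19, and Pcdhgb4 was lowest at 1.79. Pcdhga12 and Pcdhgb4 too have more exonic bases in vM21 (6664 and 5812) than the deposited RPKM imply (5080 and 4665).

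The alpha cluster was dominated by a single C-type gene. Pcdhac2, the isoform that serotonergic neurons are known to use, was at 6.53, 7.11, 6.81 and 5.48 RPKM in the 4 wild-type libraries, a mean of 6.48 ± 0.710 (SD, n = 4). The other alpha C-type gene, Pcdhac1, was at 0.429 ± 0.0682 RPKM and below most of the variable alpha genes. Among these, Pcdha12 at 1.07 ± 0.310 RPKM and Pcdha9 at 0.754 ± 0.0965 RPKM were highest (SD, n = 4), with ranges that overlapped because Pcdha12 was low in library 4. Pcdha8 was lowest of all 57 members at 0.0403 ± 0.0138 RPKM (SD, n = 4), from 0 to 13 counts per library over the 16 libraries. The rank of Pcdha4 depended on the length used: it was rank 55 of 57 by RPKM and rank 28 per unique kilobase.

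Pcdhb9 led with 5.60, 5.84, 5.87 and 6.66 RPKM, a mean of 5.99 ± 0.461 (SD, n = 4), above every other beta gene in each wild-type library. Pcdhb12 and Pcdhb17 followed at 3.27 ± 0.506 and 3.16 ± 0.123 RPKM (SD, n = 4), with overlapping ranges. Pcdhb1, the most upstream beta gene, had 0 to 21 counts per library and reached 21 only in wild-type 4. The ranges of Pcdhac2, Pcdhb9 and Pcdhga11, ranks 3 to 5 of all members by RPKM, overlapped. Per unique kilobase Pcdhb9 was rank 9 of all members at 5.60 to 6.66, below Pcdhga11 at 6.95 to 13.1 and Pcdhac2 at 10.7 to 13.8. Among beta genes the order along the chromosome and the level had a Spearman rho of 0.0265 over 22 genes. In the gamma cluster rho was 0.44 over 21 genes by RPKM and 0.23 per unique kilobase, and 0.0506 per unique kilobase without the C-type genes, all given as descriptions.

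**Figure D1:**
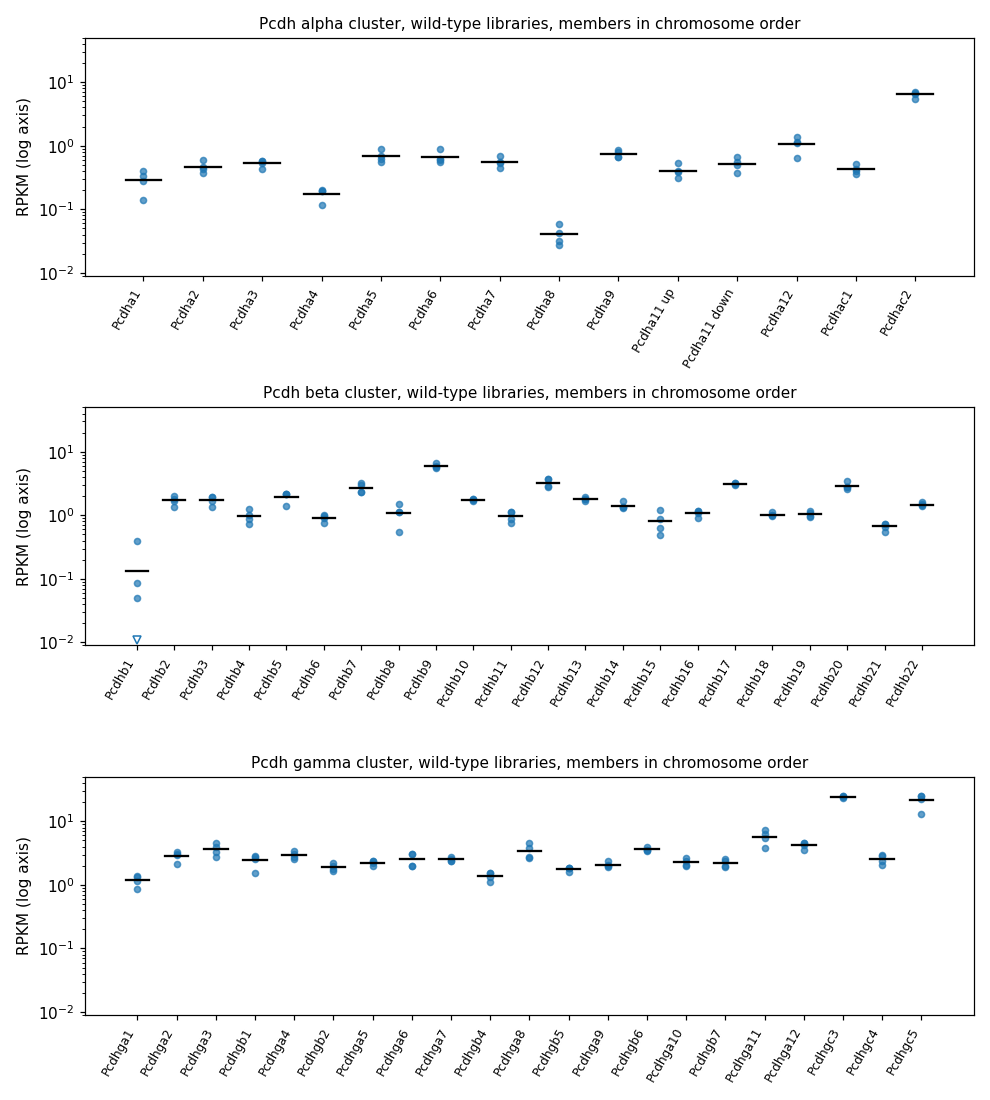
Level of each member in the 4 wild-type libraries in RPKM on a log axis, in chromosome order within each cluster. Points are libraries, bars are their means, and an open triangle at the floor marks a library with 0. Pcdhgc3 and Pcdhgc5 (means of 24.3 and 21.5 RPKM) stand above the rest, and Pcdha8 and Pcdhb1 lie lowest.

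Summed over their members, the 3 clusters kept their order in every library, and in each cluster every group overlapped with wild-type. The gamma cluster was at 523, 454, 521 and 363 CPM in wild-type libraries, 497, 461, 521 and 429 CPM in Dp16 libraries, 469, 382, 412 and 311 CPM in 5xFAD libraries and 482, 528, 324 and 412 CPM in the 5xFAD-Dp16 libraries. The lowest library of wild-type, 5xFAD and 5xFAD-Dp16 was 1 of the 4 low in excitatory neuron markers, and all 4 groups overlapped. In bulk tissue, fewer cells of a type and less RNA per cell cannot be told apart.

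The beta cluster was at 163, 150.3, 163 and 139 CPM in wild-type libraries, 180.1, 171, 178 and 158 CPM in Dp16 libraries, 155, 153, 155 and 139 CPM in 5xFAD libraries and 162, 179.8, 126 and 152 CPM in the 5xFAD-Dp16 libraries. In Dp16, 3 of 4 libraries lay above all wild-type libraries, and the fourth lay among them. The alpha cluster was at 81.2, 75.8, 79.5 and 58.3 CPM in wild-type libraries, 79.8, 79.2, 80.6 and 79.2 CPM in Dp16 libraries, 69.6, 55.1, 72.8 and 48.2 CPM in 5xFAD libraries and 80.3, 88.2, 56.8 and 64.4 CPM in the 5xFAD-Dp16 libraries. Dp16 was the most even group, and the 4 5xFAD libraries lay below all Dp16 libraries and below 3 of 4 wild-type ones.

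**Figure D2:**
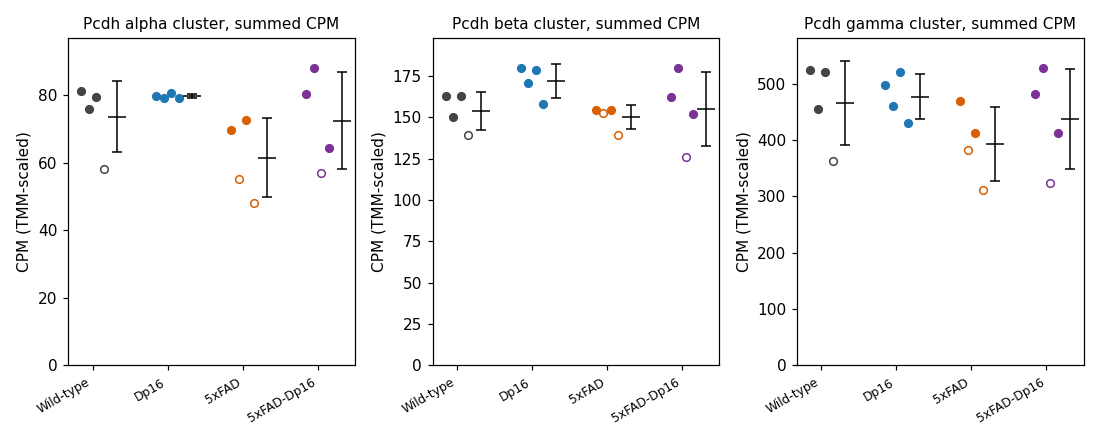
Summed CPM of the members of each cluster by library and genotype, with the group mean and SD to the right of the points. Open points are the 4 libraries with low excitatory neuron markers. Gamma sums run from 311 to 528 CPM, beta from 126 to 180 and alpha from 48.2 to 88.2, with groups that overlap.

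Group means of the shares within the family moved little. The gamma cluster made up 67.0% ± 1.62 of the members' CPM (SD, n = 4) in wild-type, and 65.4% ± 1.07, 64.8% ± 2.18 and 65.6% ± 1.18 in the Dp16, 5xFAD and 5xFAD-Dp16 groups. The beta share was 22.4% ± 1.68, 23.6% ± 0.515, 25.1% ± 2.41 and 23.5% ± 1.20 in the same order, and the alpha share 10.6% ± 0.353, 11% ± 0.699, 10.1% ± 0.897 and 10.9% ± 0.443. As group means, Pcdhgc3 and Pcdhgc5 together gave 46.5% to 47.7% of the gamma CPM, and Pcdhac2 gave 50.6% to 52.5% of the alpha CPM. Single libraries differed more, with a beta share of 21.3% to 28.0% and 43.8% to 49.9% for Pcdhgc3 and Pcdhgc5 together. The ratio of Pcdhgc5 to Pcdhgc3 ran from 0.563 in wild-type 4 to 1.27 in Dp16 3. The order of the 57 members by RPKM was nearly the same in each genotype, with a Spearman rho against wild-type of 0.987 for Dp16, 0.978 for 5xFAD and 0.986 for 5xFAD-Dp16. These rhos are across genes, which are not independent replicates, and share the wild-type libraries.

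Of the 57 members, 55 had counts enough for the test; Pcdha8 and Pcdhb1 did not. With edgeR's quasi-likelihood test at a Benjamini-Hochberg adjusted p below 0.05 over 16684 genes, 0 of the 55 members passed in any of the 5 pairwise comparisons or in the interaction. DESeq2 also called 0 in each. The 3 comparisons against wild-type share its libraries, and comparisons of 5xFAD-Dp16 share that group.

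Among the C-type genes, Pcdhgc3 had the narrowest intervals. It was at 123, 111, 121 and 102 CPM in wild-type libraries, 115, 99.5, 106 and 91.7 CPM in Dp16 libraries, 118, 102, 97.9 and 77.1 CPM in 5xFAD libraries and 104, 118, 96.3 and 98.9 CPM in the 5xFAD-Dp16 libraries. Against wild-type its level was 0.899-fold with a 95% interval of 0.751 to 1.08 in Dp16, 0.861-fold with a 95% interval of 0.719 to 1.03 in 5xFAD and 0.926-fold with a 95% interval of 0.764 to 1.12 in 5xFAD-Dp16. All groups overlapped, and a change of 1.5-fold in either direction lay outside each of these intervals.

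Pcdhgc5 varied more between libraries than between genotypes. It was at 124, 106, 125 and 57.3 CPM in wild-type libraries, 116, 117, 134 and 108 CPM in Dp16 libraries, 116, 66.3, 101 and 63.4 CPM in 5xFAD libraries and 121, 136, 62.3 and 95.4 CPM in the 5xFAD-Dp16 libraries. The lowest value in wild-type and in 5xFAD-Dp16 and the 2 lowest in 5xFAD came from the 4 libraries low in excitatory neuron markers. Outside those libraries Pcdhgc5 was at 106 to 125 CPM in wild-type, 108 to 134 in Dp16, 101 to 116 in 5xFAD and 95.4 to 136 in 5xFAD-Dp16. Its level against wild-type was 1.17-fold with a 95% interval of 0.798 to 1.71 in Dp16, 0.858-fold with a 95% interval of 0.585 to 1.26 in 5xFAD and 0.947-fold with a 95% interval of 0.633 to 1.42 in 5xFAD-Dp16. These intervals were wider than those of Pcdhgc3.

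Pcdhac2 was at 40.6, 40.9, 42.0 and 29.7 CPM in wild-type libraries, 43.0, 41.6, 43.2 and 39.7 CPM in Dp16 libraries, 37.9, 26.2, 35.9 and 24.6 CPM in 5xFAD libraries and 40.7, 45.2, 31.0 and 32.8 CPM in the 5xFAD-Dp16 libraries. The 4 Dp16 libraries were close to one another, and all 5xFAD libraries lay below them and below 3 of 4 wild-type libraries. Outside the 4 libraries low in excitatory neuron markers, Pcdhac2 was at 40.6 to 42.0 CPM in wild-type and 39.7 to 43.2 in Dp16. It was at 35.9 to 37.9 CPM in 5xFAD and 32.8 to 45.2 in 5xFAD-Dp16 there. Against wild-type the level was 1.09-fold with a 95% interval of 0.868 to 1.38 in Dp16, 0.814-fold with a 95% interval of 0.645 to 1.03 in 5xFAD (edgeR adjusted p = 0.622) and 0.958-fold with a 95% interval of 0.747 to 1.23 in 5xFAD-Dp16.

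Pcdhac1 and Pcdhgc4 were the C-type genes with low counts. Pcdhac1 was at 2.34, 1.88, 2.94 and 2.17 CPM in wild-type libraries, 2.81, 4.15, 2.42 and 3.01 CPM in Dp16 libraries, 2.36, 2.45, 1.79 and 1.97 CPM in 5xFAD libraries and 3.11, 3.93, 2.28 and 3.00 CPM in the 5xFAD-Dp16 libraries. Its point estimates were above 1 in both groups with the duplicated stretch, at 1.33-fold with a 95% interval of 0.948 to 1.87 in Dp16 and 1.29-fold with a 95% interval of 0.896 to 1.86 in 5xFAD-Dp16 against wild-type. In 5xFAD-Dp16 against 5xFAD it was 1.40-fold with a 95% interval of 0.956 to 2.04 (edgeR adjusted p = 1.000), and the groups overlapped in each case. As log2 fold changes the estimates against wild-type were 0.41 and 0.37, and 0.23 in Dp16 without Dp16 2 and 0.22 in 5xFAD-Dp16 without 5xFAD-Dp16 2. Pcdhgc4 was at 15.5, 10.2, 12.6 and 13.4 CPM in wild-type libraries, 10.2, 10.6, 12.2 and 13.5 CPM in Dp16 libraries, 12.8, 13.8, 9.05 and 12.4 CPM in 5xFAD libraries and 12.4, 10.1, 9.57 and 12.3 CPM in the 5xFAD-Dp16 libraries. It was 0.898-fold with a 95% interval of 0.706 to 1.14 in Dp16, 0.929-fold with a 95% interval of 0.730 to 1.18 in 5xFAD and 0.869-fold with a 95% interval of 0.673 to 1.12 in 5xFAD-Dp16.

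**Figure D3:**
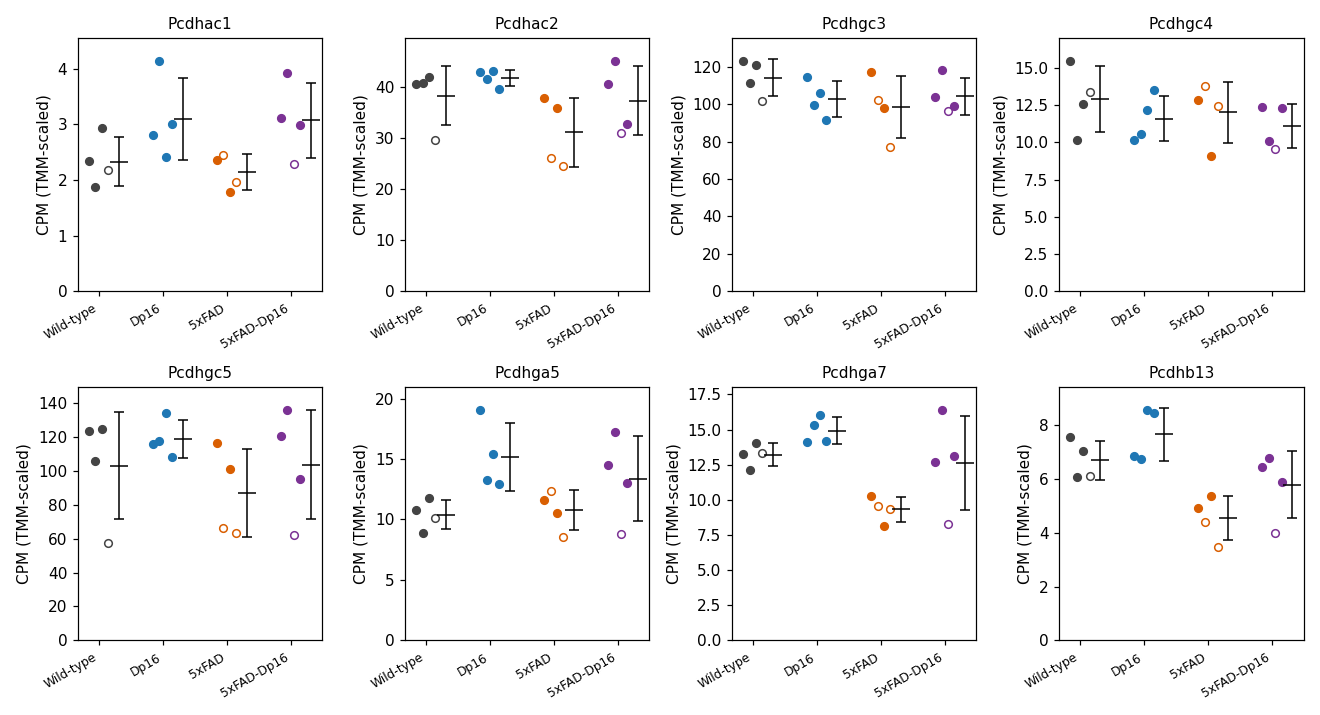
CPM of the 5 C-type genes and of Pcdhga5, Pcdhga7 and Pcdhb13 by library and genotype, with group mean and SD. Open points are the 4 libraries low in excitatory neuron markers. Pcdhgc5 is at 57.3 to 66.3 CPM in those and at 95.4 to 136 CPM in the other 12, and Pcdhga7 is lower in each 5xFAD library than in each wild-type library.

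The first question of the design is what the duplicated stretch changes in Dp16. Here 14 genes passed, which is 0.0839% of those tested, and 0 of 55 members were among them. At an unadjusted p below 0.05 there were 3 members (5.45%, against 3.31% of all genes), Pcdhb16, Pcdhga5 and Pcdhb15, and DESeq2 also gave 3. The median log2 fold change was 0.20 over the 21 tested beta genes, -0.0045 over 13 alpha genes and -0.0210 over 21 gamma genes, beside -0.0133 over all genes tested. Of the beta genes 19 of 21 (90.5%) had a log2 fold change above 0, against 46.9% of all genes tested. Without the 4 libraries low in excitatory neuron markers, the beta median was 0.17, and in males alone (2 libraries per group) 0.10.

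Pcdhb16, a single-exon beta gene, was at 6.43, 5.89, 5.88 and 4.39 CPM in wild-type and 9.33, 7.63, 8.12 and 7.12 in Dp16. The 4 Dp16 libraries lay above the 4 wild-type libraries, and the log2 fold change was 0.51 ± 0.18 (SE; edgeR adjusted p = 0.990). Pcdhga5, a gamma gene of the A subfamily, was at 10.8, 8.90, 11.8 and 10.1 CPM in wild-type and 19.1, 13.2, 15.4 and 12.9 in Dp16, again with no overlap. Its log2 fold change was 0.54 ± 0.19 (SE; edgeR adjusted p = 0.990). Pcdhb15 was at 3.60, 1.70, 2.58 and 1.27 CPM in wild-type and 2.47, 3.49, 3.78 and 3.42 in Dp16, with groups that overlapped. Its log2 fold change was 0.58 ± 0.25 (SE; edgeR adjusted p = 0.990). For the alpha genes the smallest p belonged to Pcdhac1 and to Pcdha12, which was at 6.47, 7.25, 6.15 and 3.17 CPM in wild-type and 8.54, 8.29, 7.94 and 7.33 in Dp16, a log2 fold change of 0.49 ± 0.32 (SE; edgeR adjusted p = 0.990), or 0.31 without wild-type 4 and 0.78 without wild-type 2. The second smallest p among gamma genes was that of Pcdhgb7, with a log2 fold change of 0.25 ± 0.17 (SE; edgeR adjusted p = 0.990).

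In all, 4 members (7.27%) had every Dp16 library above every wild-type library, Pcdha12, Pcdhb16, Pcdhga5 and Pcdhga7, against 1.37% of all genes tested, and 0 had the reverse, against 1.55%. For 52 of 55 members the 95% interval lay within 2-fold in both directions, and for 23 within 1.5-fold. Over all 16684 genes tested, these counts were 13217 and 9548.

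The second question is what the amyloid transgenes change. In 5xFAD against wild-type, 162 genes passed (0.971%), with 0 of 55 members among them. There were 6 members (10.9%) with an unadjusted p below 0.05, against 8.85% of all genes, by edgeR and also 6 by DESeq2. The edgeR members all had negative log2 fold changes. They were Pcdha1, Pcdha4, Pcdhb13, Pcdhga7, Pcdhga8 and Pcdhga10. Medians were -0.25 over alpha, -0.0432 over beta and -0.22 over gamma genes, beside 0.0200 over all genes tested. A log2 fold change above 0 was seen in 1 of 13 alpha genes, 8 of 21 beta genes and 2 of 21 gamma genes, against 53.5% of all genes tested. Of the 4 libraries low in excitatory neuron markers, 2 are 5xFAD and 1 is wild-type. Summed microglia markers (8 genes) were at 704 to 1067 CPM in 5xFAD against 388 to 433 CPM in wild-type, and 5 of the 8 did not overlap, all higher in 5xFAD. Leaving out 1 library at a time, the alpha median ran from -0.40 to -0.0713 (the last without 5xFAD 4) and the gamma median from -0.35 to -0.11. Without all 4, the medians were -0.14 for alpha, -0.0503 for beta and -0.16 for gamma, and in males alone they were -0.51, -0.21 and -0.50. Males alone set wild-type 1 and 3 against 5xFAD 3 and 4, of which only 5xFAD 4 is among the 4 low libraries. The part of the tissue and microglia markers in these medians was not tested beyond that.

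Pcdhga7, a gamma gene of the A subfamily, had the smallest p. It was at 13.3, 12.1, 14.1 and 13.4 CPM in wild-type libraries, 14.1, 15.3, 16.1 and 14.2 CPM in Dp16 libraries, 10.3, 9.58, 8.10 and 9.32 CPM in 5xFAD libraries and 12.7, 16.4, 8.31 and 13.1 CPM in the 5xFAD-Dp16 libraries. Every 5xFAD library lay below every wild-type library, and the 2 5xFAD libraries low in excitatory neuron markers lay within the range of the other two. The log2 fold change was -0.50 ± 0.16 (SE; edgeR adjusted p = 0.275, and 0.0633 to 0.529 over the alternatives), and -0.49 without the 4 libraries. In 5xFAD-Dp16 against 5xFAD the log2 fold change of Pcdhga7 was 0.42 ± 0.18 (SE; edgeR adjusted p = 1.000).

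Pcdhb13 was at 7.55, 6.07, 7.04 and 6.11 CPM in wild-type and 4.92, 4.40, 5.36 and 3.45 in 5xFAD, with no overlap and a log2 fold change of -0.56 ± 0.19 (SE; edgeR adjusted p = 0.309), or -0.39 without the 4 libraries. Pcdhga10 was at 10.4, 12.2, 9.84 and 10.4 CPM in wild-type and 9.07, 8.08, 8.10 and 6.61 in 5xFAD, a log2 fold change of -0.43 ± 0.16 (SE; edgeR adjusted p = 0.403). The bases that Pcdhga10 alone holds on its strand all carry antisense annotation, as given above, so its reads may not all be its own. The alpha genes with the smallest p were near the limit of detection. Pcdha1 was at 1.56, 0.742, 2.27 and 1.68 CPM in wild-type and 0.639, 0.613, 0.615 and 1.13 in 5xFAD, and Pcdha4 at 1.12, 1.00, 0.668 and 0.996 and 0.447, 0.223, 0.726 and 0.0986 CPM. Their log2 fold changes were -1.04 ± 0.44 and -1.35 ± 0.57 (SE; edgeR adjusted p = 0.499 and 0.505), and the groups overlapped in both. Without the 4 libraries the value for Pcdha4 was -0.62. Pcdhb14 completed the beta genes at -0.29 ± 0.16 (SE; edgeR adjusted p = 0.628).

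Members with all 5xFAD libraries below all wild-type libraries were Pcdhb13, Pcdhb14, Pcdhga7 and Pcdhga10 (4 of 55, 7.27%), against 1.35% of all genes tested. In 0 members were they all above, against 3.18% of all genes.

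**Figure D4:**
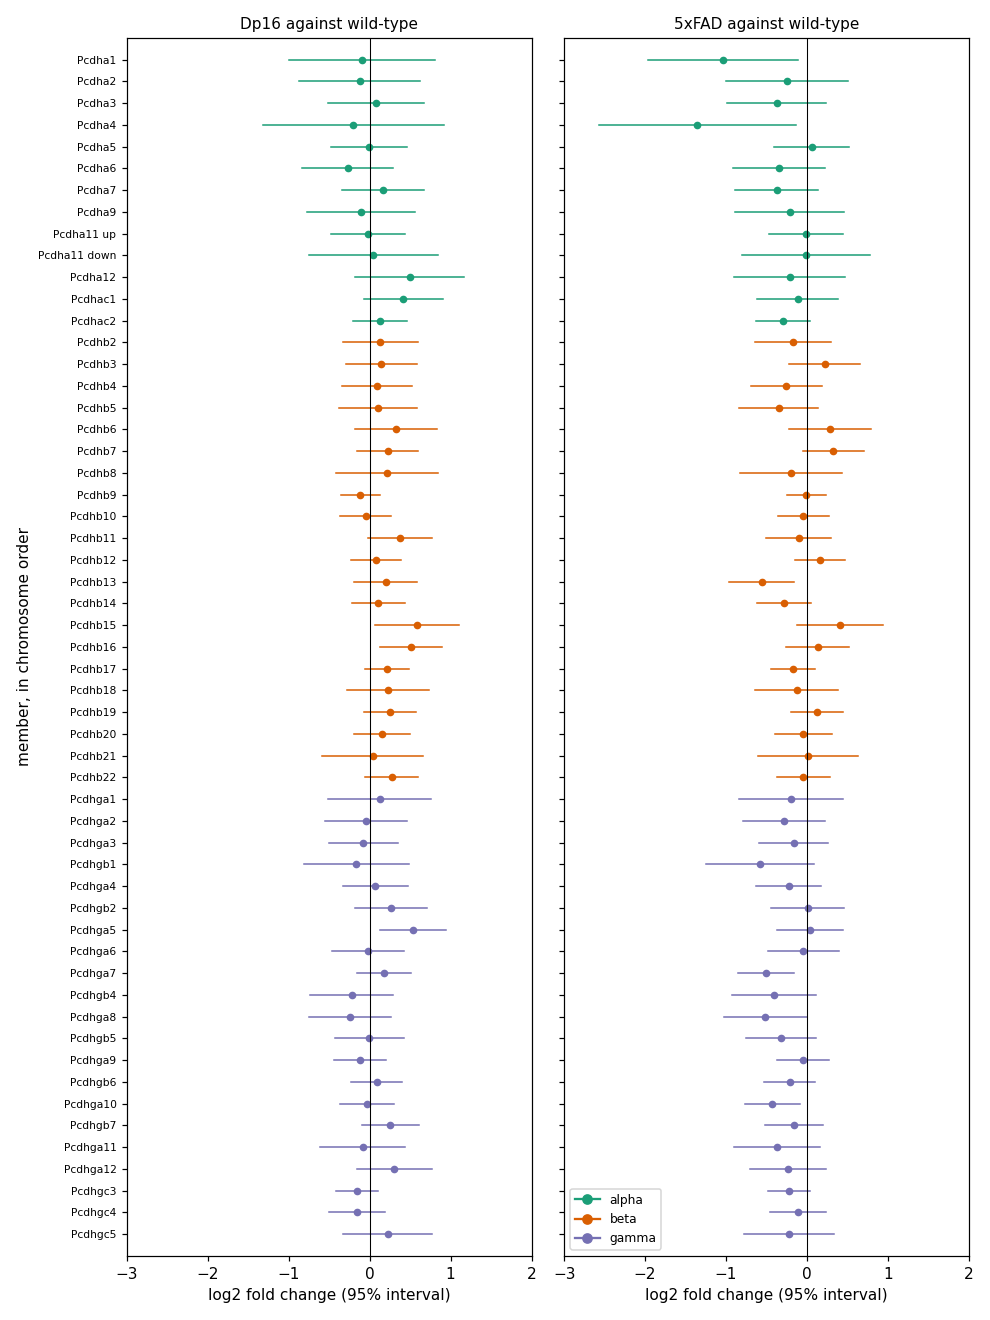
Log2 fold change of each tested member with its 95% interval, in chromosome order, for Dp16 and for 5xFAD against wild-type from the edgeR model. In Dp16 19 of 21 beta points lie above 0, and in 5xFAD 12 of 13 alpha and 19 of 21 gamma points lie below it, while 3 and 6 intervals exclude 0.

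With both alterations, 5xFAD-Dp16 against wild-type, 169 genes passed (1.01%) and 0 of 55 members. At an unadjusted p below 0.05 there were 0 members by edgeR (6.38% of all genes) and 1 by DESeq2. Medians were -0.0623 over alpha, -0.0277 over beta and -0.14 over gamma genes, beside -0.0043 over all genes. Pcdha2 had the smallest p, at 2.48, 3.14, 2.63 and 1.81 CPM in wild-type and 1.08, 1.66, 0.861 and 2.00 in 5xFAD-Dp16, where 3 libraries lay below the wild-type range and 1 within it. Its log2 fold change was -0.80 ± 0.39 (SE; edgeR adjusted p = 0.809). Pcdhga5 was at 14.5, 17.2, 8.81 and 12.99 CPM in 5xFAD-Dp16, with 3 of 4 libraries above wild-type, a log2 fold change of 0.40 ± 0.20 (SE; edgeR adjusted p = 0.865). The lone low library was 5xFAD-Dp16 3, and without the 4 libraries the value was 0.52. In 0 members did the groups not overlap, against 3.08% of all genes higher and 1.29% lower. Among the remaining members with the 2 smallest p of a cluster, Pcdhga8 was at -0.50 ± 0.26, Pcdhb2 at -0.36 ± 0.23 and Pcdhb5 at -0.35 ± 0.24 (log2 fold change and SE; edgeR adjusted p = 0.873, 1.000 and 1.000). Leaving out 1 library moved several of these log2 fold changes by over 1.5 times, to 0.25 for Pcdhga5 (without 5xFAD-Dp16 2), -0.27 for Pcdhga8 (without wild-type 3) and, without 5xFAD-Dp16 3, -0.22 for Pcdhb2 and -0.15 for Pcdhb5. The gamma median ran from -0.24 (without 5xFAD-Dp16 2) to -0.0502 (without wild-type 1). Summed microglia markers were at 641 to 770 CPM in 5xFAD-Dp16, above all wild-type libraries, and 6 of the 8 did not overlap with wild-type; their part in these values was not tested.

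The duplicated stretch on the amyloid background was read from 5xFAD-Dp16 against 5xFAD, in which 9 genes passed (0.0539%) and 0 of 55 members. By edgeR 1 member, Pcdhga7, had an unadjusted p below 0.05 (1.82%, against 3.28% of all genes), and by DESeq2 there was also 1. The medians were 0.32 over alpha, 0.0524 over beta and 0.11 over gamma genes, beside -0.0028 over all genes. The alpha median was 0.0630 without 5xFAD 4, whereas without it the gamma median was -0.0464 and the beta median -0.0455. The gamma and beta medians each took the other sign in 2 of 24 alternatives. Pcdha4 had a log2 fold change of 1.09 ± 0.62 and Pcdhb7 of -0.37 ± 0.19 (SE; edgeR adjusted p = 1.000 and 1.000). Pcdhb7 was at 12.97, 10.6, 11.1 and 12.6 CPM in 5xFAD and 9.17, 12.4, 7.04 and 8.73 in 5xFAD-Dp16, with overlap. Pcdhb17, the beta gene with the narrowest interval of these, was at 0.27 ± 0.14 (SE; edgeR adjusted p = 1.000). Without the 4 libraries low in excitatory neuron markers, the values were 0.31 for Pcdha4 and -0.21 for Pcdhb7. Leaving out 1 library, Pcdha4 ran from 0.64 (without 5xFAD-Dp16 1) to 1.84 (without 5xFAD 3), Pcdhb17 was at 0.15 without 5xFAD 4, and Pcdhga7 at 0.27 without 5xFAD-Dp16 2. Here too 0 members had groups that did not overlap, against 1.33% of all genes higher and 1.28% lower.

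The amyloid transgenes on the duplication background were read from 5xFAD-Dp16 against Dp16, in which 141 genes passed (0.845%) and 0 of 55 members. By edgeR 1 member, Pcdhb13, had an unadjusted p below 0.05 (1.82%, against 8.57% of all genes), and by DESeq2 2 members. Medians were -0.14 over alpha, -0.24 over beta and -0.16 over gamma genes, beside 0.0202 over all genes, and 6 of 55 members (10.9%) had a log2 fold change above 0, against 53.4% of all genes tested. Without the 4 libraries, of which 5xFAD-Dp16 3 is the only one in these groups, the medians were -0.0471, -0.11 and -0.0434. Pcdhb13 was at 6.86, 6.74, 8.56 and 8.47 CPM in Dp16 and 6.45, 6.79, 4.00 and 5.89 in 5xFAD-Dp16, a log2 fold change of -0.43 ± 0.20 (SE; edgeR adjusted p = 0.578). Pcdhb11 was at 6.91, 5.84, 4.47 and 5.05 CPM in Dp16 and 4.07, 3.58, 4.31 and 4.21 in 5xFAD-Dp16, with no overlap and a log2 fold change of -0.42 ± 0.20 (SE; edgeR adjusted p = 0.609). Pcdha2 was the other member without overlap, at -0.68 ± 0.39 (SE; edgeR adjusted p = 0.685), which makes 2 of 55 (3.64%) against 2.05% of all genes lower in this way, with 0 higher against 3.71%. The upstream Pcdha11 had a log2 fold change of 0.33 ± 0.23 and Pcdhga10 of -0.29 ± 0.17 (SE; edgeR adjusted p = 0.712 and 0.691). Without Dp16 3 the value for Pcdhga10 was -0.11, and without 5xFAD-Dp16 3 that for Pcdhb13 was -0.29. Pcdha2 was at -0.37 without the 4 libraries.

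Whether the effect of the duplicated stretch differed with the transgenes was tested as the interaction, in which 0 genes of the whole table passed (0%), by edgeR and by DESeq2. By edgeR 2 members had an unadjusted p below 0.05 (3.64%, against 1.99% of all genes), Pcdhb7 and Pcdhb15, and by DESeq2 there were also 2. The interaction was -0.59 ± 0.26 for Pcdhb7 and -0.82 ± 0.37 for Pcdhb15 (log2 and SE; edgeR adjusted p = 1.000 and 1.000). Pcdhb15 was at 2.68, 2.62, 3.24 and 3.16 CPM in 5xFAD and 3.00, 3.67, 1.87 and 3.37 in 5xFAD-Dp16, beside the wild-type and Dp16 values given above. The largest alpha value was that of Pcdha4, 1.30 ± 0.80, and the gamma gene with the smallest p was Pcdhgc3 at 0.26 ± 0.18 (log2 and SE; edgeR adjusted p = 1.000 and 1.000). Without the 4 libraries low in excitatory neuron markers, the interaction was 0.45 for Pcdha4, -0.32 for Pcdhb7 and -0.47 for Pcdhb15, each at least 1.5 times smaller. Leaving out 1 library, Pcdha4 ran from 0.85 (without 5xFAD-Dp16 1) to 2.02 (without 5xFAD 3), and Pcdhgc3 was at 0.10 without 5xFAD 4. Only 8 of 55 intervals lay within 1.5-fold here, against 6249 of 16684 over all genes tested. A difference of this size was therefore not excluded for most members.

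Members also differed between libraries along with the tissue markers. In the 4 libraries low in excitatory neuron markers, all 5 of these markers lay below the other 12 libraries. Of the members, 6 of 55 (10.9%) lay below the other 12 in all 4 libraries, against 7.37% of all genes tested, and 0 lay above, against 5.80%. They were Pcdhac2, Pcdhb17, Pcdhga2, Pcdhgb7, Pcdhga12 and Pcdhgc5. These groups of libraries were defined from markers and not by the study, and no test was made.

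Pcdhgc5 showed the widest gap among abundant members. It was at 57.3 to 66.3 CPM in the 4 libraries and 95.4 to 136 CPM in the other 12, and the mean of the 4 divided by the median of the 12 was 0.533. Pcdhac2 was at 24.6 to 31.0 CPM against 32.8 to 45.2 CPM, a ratio of 0.683. Pcdhgc3, also of the gamma C-type, had a ratio of 0.869 with ranges of 77.1 to 102 and 91.7 to 123 CPM that overlapped. Pcdhgc4 and Pcdhb9 stood at ratios of 1.00 and 0.965, with all 4 libraries inside the range of the 12. Over the clusters the ratios were 0.688 for alpha, 0.857 for beta and 0.726 for gamma, and 49 of 57 members had a ratio below 1. No ratio over all genes is given beside these, so they describe the members only and show no trait particular to them.

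**Figure D5:**
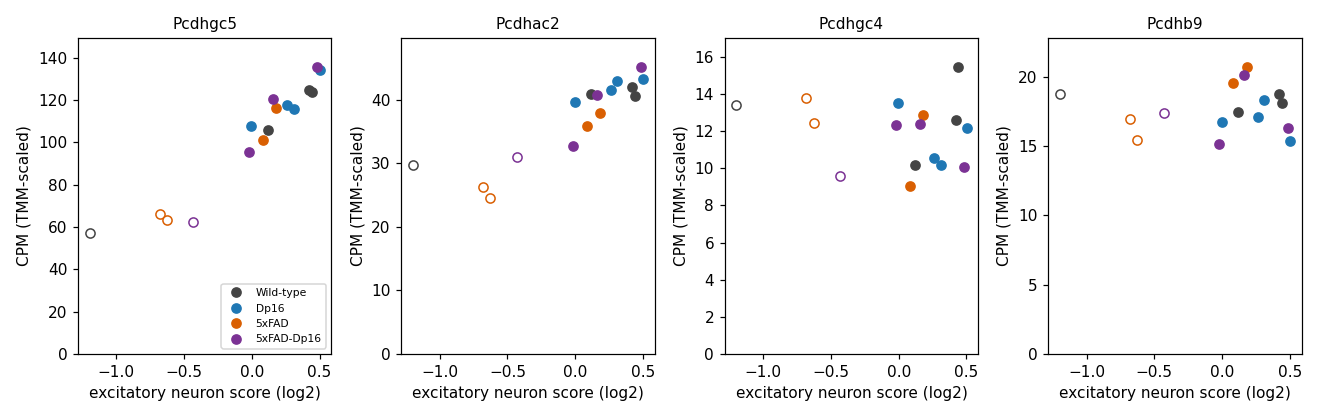
CPM of Pcdhgc5, Pcdhac2, Pcdhgc4 and Pcdhb9 in each library against the excitatory neuron score, the mean over 5 markers of log2 CPM minus its mean over the 16 libraries. Open points are the 4 libraries with scores of -1.20 to -0.43. Pcdhgc5 and Pcdhac2 are lower there, whereas Pcdhgc4 and Pcdhb9 overlap with the other 12 libraries.

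Members differed in how far they varied between wild-type libraries. The median SD of log2 CPM was 0.33 over the tested alpha, 0.24 over the beta and 0.27 over the gamma genes. It was widest in Pcdha1 (0.67), Pcdha12 (0.54) and Pcdha5 (0.36) of the alpha cluster and in Pcdhb15 (0.66), Pcdhb8 (0.54) and Pcdhb5 (0.40) of the beta cluster. In the gamma cluster it was widest in Pcdhgc5 (0.53), Pcdhgb1 (0.48) and Pcdhga11 (0.48). Several of these are genes with few counts, but Pcdhgc5 is not, and 3 of its 4 wild-type values were at 106 CPM or above. In wild-type 4 it was at 57.3 CPM. That library, low in excitatory neuron markers, was the lowest of wild-type for Pcdha12, Pcdha5, Pcdhb15, Pcdhb5, Pcdhgc5, Pcdhgb1 and Pcdhga11. It was not the lowest for Pcdha1 or Pcdhb8. The fitted biological coefficient of variation had a median of 0.267 over alpha, 0.181 over beta and 0.203 over gamma genes, against 0.178 over all genes tested.

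The regulators and partners of the family were examined from 3 lists. By edgeR 0 of their genes passed in any comparison, and at an unadjusted p below 0.05 there were 0 to 2 of the first list, 0 to 2 of the second and 0 to 1 of the third per comparison. DESeq2 gave 0 to 2, 0 to 2 and 0 to 1 at that level, and 1 gene of the first list, Rest, passed with it in 5xFAD-Dp16 against Dp16 (adjusted p = 0.0496). The first holds 22 factors that shape loops, methylation or silencing at the clusters, of which 21 were tested. Ctcf, whose protein binds the promoters and enhancers of the clusters, was at 72.6, 79.7, 79.6 and 74.5 CPM in wild-type libraries, 78.1, 76.5, 79.5 and 70.0 CPM in Dp16 libraries, 72.6, 69.5, 72.9 and 78.1 CPM in 5xFAD libraries and 70.2, 78.3, 62.6 and 72.1 CPM in the 5xFAD-Dp16 libraries, with groups that overlapped. Rest, a repressor of neuronal genes, had the smallest adjusted p of the lists by edgeR. It was at 6.74, 4.05, 4.59 and 5.70 CPM in Dp16 and 6.90, 6.74, 7.85 and 7.89 in 5xFAD-Dp16, a log2 fold change of 0.58 ± 0.16 (SE; edgeR adjusted p = 0.157). In Dp16 against wild-type it was -0.33 ± 0.15, at an edgeR adjusted p of 0.990. In 5xFAD-Dp16 against 5xFAD the smallest p were those of Stag2, a cohesin subunit, at -0.26 ± 0.0823, and of Dnmt3a, a DNA methyltransferase, at -0.30 ± 0.12 (log2 fold change and SE; edgeR adjusted p = 1.000 for both). Tet2 and Tet1, which oxidise methylcytosine, led in 5xFAD against wild-type at 0.20 ± 0.10 and 0.27 ± 0.15 (SE; edgeR adjusted p = 0.572 and 0.634). Leaving out 1 library, Tet2 was at 0.12 without 5xFAD 2 and Tet1 at 0.16 without 5xFAD 1.

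The second list holds 27 signalling partners and proteases, all tested. Among them Ret, a receptor tyrosine kinase that binds protocadherins, was at 3.60, 5.59, 4.94 and 13.8 CPM in wild-type and 7.99, 72.7, 4.81 and 9.57 in 5xFAD, with overlap, a log2 fold change of 1.53 ± 0.61 (SE; edgeR adjusted p = 0.462). This rests on 5xFAD 2, a library high in midbrain markers, without which the log2 fold change was 0.31. Rhoa, a small GTPase of the cytoskeleton, was at 0.23 ± 0.0949 in the same comparison (SE; edgeR adjusted p = 0.494). In Dp16 the smallest p of this list were those of Marcks and Fyn, at -0.14 ± 0.12 and 0.11 ± 0.0925 (SE; edgeR adjusted p = 0.990 for both). Without wild-type 4 that of Marcks was 0.0242, on the other side of 0, and that of Fyn 0.0643.

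The third list holds the 12 nonclustered protocadherins, single genes outside the clusters, all tested. Medians of their log2 fold changes against wild-type were -0.0317 for Dp16, -0.15 for 5xFAD and -0.10 for 5xFAD-Dp16. Pcdh8, which takes part in synapse turnover, was at 72.7, 72.9, 90.4 and 61.8 CPM in wild-type and 74.2, 49.0, 60.7 and 43.2 in 5xFAD, a log2 fold change of -0.39 ± 0.19 (SE; edgeR adjusted p = 0.592). Pcdh12, a protocadherin of blood vessels, was at -1.07 ± 0.54 in the same comparison (SE; edgeR adjusted p = 0.596). Pcdh18 was at -0.43 ± 0.23 in Dp16 against wild-type and at 0.60 ± 0.25 in 5xFAD-Dp16 against Dp16 (SE; edgeR adjusted p = 0.990 and 0.527). Without wild-type 4 its value in Dp16 was -0.18. In 5xFAD-Dp16 against Dp16 it was 0.37 without the 4 libraries low in excitatory neuron markers, and Pcdh8 was then at -0.21 in 5xFAD against wild-type.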

How the data were processed

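The authors deposited raw read counts per gene and RPKM values for 55385 genes in 16 libraries. The tools were bcl2fastq, FastQC 0.11.5, HISAT2 2.1.0, SAMtools 1.5 and HTSeq 0.6.1 with build GRCm38, per the submitters' processing notes. The strand setting and the treatment of reads that fall on several genes are not given in the sources used here. The deposited RPKM implied 1 gene length in all libraries for each of the 57 members (relative tolerance 1e-06), so they are a rescaling of the counts.

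Counts were tested with edgeR 4.0.16 in R 4.3.3: TMM scaling, the default filter by genotype (16684 genes), a robust quasi-likelihood model over all libraries with genotype and sex terms, and Benjamini-Hochberg adjustment with a threshold of 0.05. CPM are TMM-scaled, and log2 fold changes carry the SE from the fit. Alternatives were DESeq2 1.42.0, DESeq2-type scaling, no filter, no sex term, males only, a replicate block, only the groups compared, leaving out the 4 libraries low in excitatory neuron markers, and leaving out each library. The steps were tested on simulated data. Coordinates and exon overlaps come from GENCODE vM21 on GRCm38, whereas the deposited tables are named for GENCODE vM24. The exonic length was the same in vM21 and in the RPKM for 44 of 57 members, so levels per unique kilobase combine both releases. The members, gene lists and tests were chosen with earlier results of these data known. Genes named are, per cluster, the 3 highest and the lowest in wild-type, the C-type genes, the 2 smallest p per comparison and the 3 widest spreads, and per list the 2 smallest p; some genes these rules reach are not reported here. Genes listed by whether groups overlap, Pcdhga12, Pcdhga2, Pcdhb21, Pcdhb22, Pcdha7, Ctcf and all lists of libraries were named after their values were seen.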

Additional observations from a re-analysis of the deposited data

Results flagged for a closer look

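In 7 of 152 groups of 4 libraries examined (3 cluster sums and 35 named members in 4 genotypes), 1 library lay far from the other three, by a gap above Dixon's 95% critical share of the group's range. Chance gives about 1 in 20 such groups when they are independent and not picked by their values. Here some members were named for their spread or p in these data, and the cluster sums contain named members. The 1 in 20 is therefore only a rough guide. The beta sum of 5xFAD 4 was 139 CPM, below 153 to 155 in the rest of its group. Pcdhac2 was at 29.7 CPM in wild-type 4, against 40.6 to 42.0, and wild-type 4 and 5xFAD 4 are 2 of the 4 libraries low in excitatory neuron markers. Pcdha6 was at 1.53 CPM in 5xFAD 4, against 3.13 to 3.45, and at 5.06 CPM in wild-type 1, against 2.99 to 3.23. Pcdha1 was at 1.13 CPM in 5xFAD 4, against 0.613 to 0.639. Pcdha9 was at 2.19 CPM in Dp16 1, against 4.15 to 4.34, and Pcdhb12 at 7.36 CPM in 5xFAD-Dp16 4, against 10.6 to 11.1.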

How the results depend on the processing

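In 149 fits over the 6 comparisons and their settings, 0 members passed at an adjusted p below 0.05. The smallest adjusted p of a member was 0.0633, for Pcdhga7 in 5xFAD against wild-type without 5xFAD-Dp16 replicate 3. Of 18 cluster medians, 8 kept 1 sign under every alternative run: beta in Dp16, alpha and gamma in 5xFAD and gamma in 5xFAD-Dp16 against wild-type, alpha in 5xFAD-Dp16 against 5xFAD, and all 3 clusters in 5xFAD-Dp16 against Dp16. The other 10 medians took both signs. In males only, the 5xFAD medians were -0.51 for alpha, -0.21 for beta and -0.50 for gamma, and the interaction medians 0.34 for alpha and 0.33 for gamma. Males only leaves 2 libraries each of wild-type, Dp16 and 5xFAD. It drops wild-type 4 and keeps 5xFAD 4, both low in excitatory neuron markers. The cause of these shifts was not tested. Leaving out 1 library at a time, the alpha median of 5xFAD-Dp16 against 5xFAD ran from 0.0630 (without 5xFAD replicate 4) to 0.38. With unique exonic length, the wild-type medians were 1.26 in alpha, 1.51 in beta and 4.38 in gamma, against 0.525, 1.45 and 2.53 RPKM.

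The replicate block of the labels' numbers called 0 members and moved no cluster median by more than 0.0612, and the beta median in Dp16 was 0.20 with it. The numbers share no stated litter or day: 10 of 24 same-numbered pairs of libraries had deviations correlated above 0.1 (range -0.42 to 0.42), and 4 of 16 libraries correlated best with their own number.

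Pcdha8 and Pcdhb1 had too few counts to be tested. In the interaction 3 of 13 alpha intervals lay within 2-fold, against 11337 of 16684 over all genes tested. Group sizes of 4, unequal tissue markers and constant exons that counts cannot assign limit every comparison.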
